A study of Mus musculus with 3 samples.

Results

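Axon guidance genes were examined as a module in mouse embryonic stem (ES) cells. Members were matched by gene symbol: ephrins, Eph receptors, semaphorins, plexins, neuropilins, Slit and Robo genes, netrins, Unc5 genes and Dcc. No measured value entered the match, but the module was chosen with earlier results of these data known. The pattern matched 64 of the 15311 genes of the table, of which 33 encode ligands and 29 encode receptors. Unc50 and Unc5cl were matched through their symbols alone and are not netrin receptors, so they stand outside both roles, which leaves 62 genes. No gene of the table matched Dcc, so it is not analysed here. Every gene of the table has at least 1 count in each library.

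Polyadenylated RNA was sequenced from ES cells that carried a transgene for H2A.Z, a variant of histone H2A, with a yellow fluorescent tag (YFP). It was driven by a CMV promoter through rtTA and induced with doxycycline at 1 µg/ml. In the WT group (2 libraries) the transgene encoded wild-type H2A.Z, and in the K3R3 group (1 library) it encoded H2A.Z with 3 C-terminal lysines changed to arginine. Both groups were sorted for YFP, carried a hairpin against the endogenous H2A.Z transcript and were selected with blasticidin, so neither is an unmodified ES cell. The labels list 2 hairpins without saying which was used. The labels name V6.5 as the strain and describe the transgenic lines as derived from KH2 cells, and they do not say whether a line is 1 clone or whether the WT libraries are separate cultures. All p-values therefore reflect the spread within the WT pair alone, which may be a technical one, and K3R3 has no replicate of its own. In the main test, by edgeR, that spread was shared across genes. How closely the WT libraries agreed in a single gene therefore hardly entered its standard error (SE) or p-value.

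Guidance molecules steer growing axons, migrating cells and sprouting vessels. Ephrins are membrane-bound ligands of the Eph receptor tyrosine kinases, and semaphorins signal through plexins, the secreted class 3 members mostly with a neuropilin as co-receptor. Slits repel cells through Robo receptors, and netrins attract through Dcc or repel through Unc5 receptors. In ES cells many genes of development have bivalent promoters, which carry an activating and a Polycomb mark and keep the gene poised at a low level. The table gives a class code for each gene that its header credits to an earlier study, and 36 of the 62 genes were bivalent, 25 active and 1 (Plxnb3) had neither code.

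Of the 62 ligands and receptors, 57 had a mean of at least 0.5 CPM (reads per TMM-scaled library size) over the 3 libraries and were tested. In the K3R3 library 7 of the 57 rose and 0 fell by the quasi-likelihood test of edgeR (Benjamini-Hochberg adjusted p under 0.05). Of all 13829 genes tested, 2.02% were called higher and 0.542% lower. The ligands that rose were Sema3e, Sema3d and Efna5, and the receptors were Plxnc1, Plxnd1, Epha1 and Ephb1. In each of the 7 the K3R3 library lay above both WT libraries. At an unadjusted p under 0.05 by the same tool, 16 members lay higher and 1 (Epha4) lower, against 7.90% and 3.33% of all genes. DESeq2 called 2 members higher, Sema3e and Epha1, and 0 lower, where it called 0.239% and 0.188% of all genes.

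**Figure D1:**
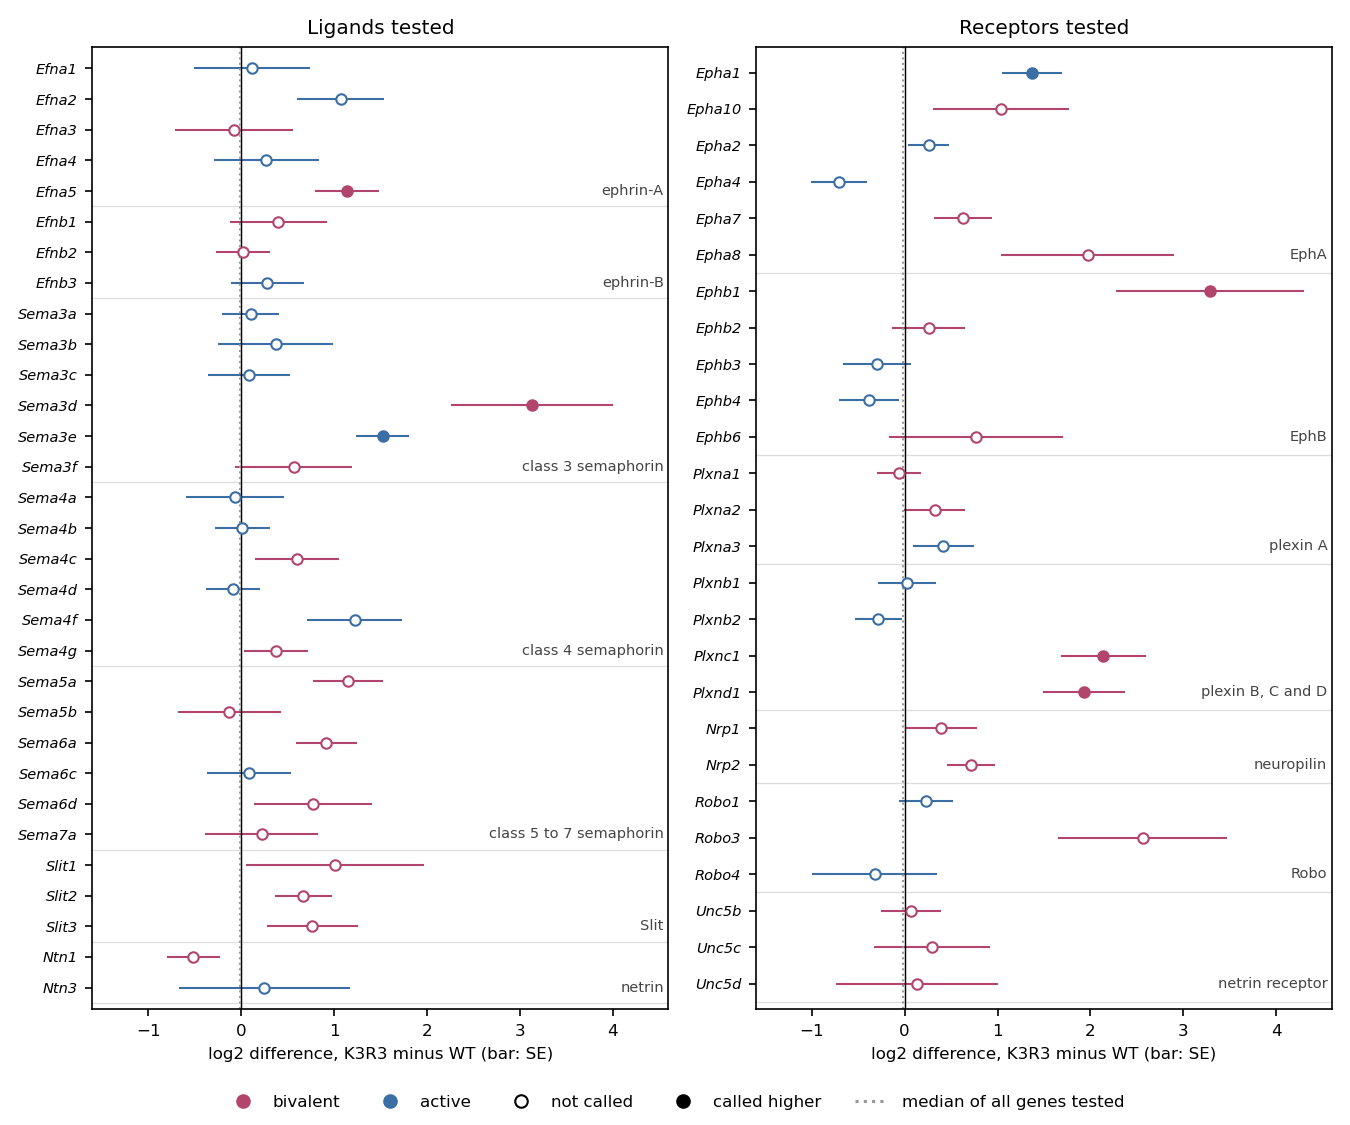
Fitted log2 difference of K3R3 minus WT (x axis, bars show the standard error) for each tested ligand (left) and receptor (right), grouped by family. Filled points are the 3 ligands and 4 receptors called higher, open points were not called, colour gives the class, and the dotted line is the median of all genes tested.

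The call of 2 of the 7, Sema3d and Ephb1, rests on genes that were close to silent in WT. Their WT mean was under 0.5 CPM and they passed the minimum only through the K3R3 library, as did Slit1, Epha8, Ephb6 and Robo3, which were not called. The other 5 called members are also those at least 2-fold above each WT library in CPM after adding 1, among 49 members with a mean of at least 1 CPM. By this size rule 5 members were higher and 0 lower, against 2.10% and 0.172% of all genes, and without WT replicate 2 the count was 9. The authors' deposited table lists an unadjusted p under 0.05 for 10 of the 62 members, all of them higher in K3R3 by the counts, against 3.67% higher and 1.19% lower over its genes.

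The 120 bases directly before the annotated start of these 5 genes are shown because the class codes are a property of promoters, and these are the called members with measurable WT levels. The sequences are from RefSeq on build GRCm38.p6, run 5′ to 3′ on the strand of the gene, and have each CG dinucleotide (CpG) in capitals. Sema3e lies at chr5:14025156-14025275 (plus strand), Plxnd1 at chr6:115995006-115995125, Plxnc1 at chr10:94944846-94944965, Epha1 at chr6:42373269-42373388 and Efna5 at chr17:62881318-62881437 (all minus strand).
Sema3e: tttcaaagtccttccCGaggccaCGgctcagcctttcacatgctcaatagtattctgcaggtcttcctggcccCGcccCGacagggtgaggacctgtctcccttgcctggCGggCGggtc
Plxnd1: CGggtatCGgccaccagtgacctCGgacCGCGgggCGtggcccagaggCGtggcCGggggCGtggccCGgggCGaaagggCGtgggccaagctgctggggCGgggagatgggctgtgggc
Plxnc1: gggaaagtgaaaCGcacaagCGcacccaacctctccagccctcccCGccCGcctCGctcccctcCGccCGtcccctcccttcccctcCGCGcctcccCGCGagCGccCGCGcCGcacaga
Epha1: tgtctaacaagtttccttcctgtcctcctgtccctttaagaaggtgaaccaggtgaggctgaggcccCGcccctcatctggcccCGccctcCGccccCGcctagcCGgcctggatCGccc
Efna5: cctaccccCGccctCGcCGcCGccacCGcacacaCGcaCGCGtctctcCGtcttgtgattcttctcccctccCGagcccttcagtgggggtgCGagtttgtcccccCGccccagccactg
In the 250 bases before the start, the bivalent genes Plxnd1, Plxnc1 and Efna5 held 16, 22 and 32 CpG, and the active genes Sema3e and Epha1 held 7 and 9. The other called genes, Sema3d and Ephb1, are bivalent as well and held 4 and 10, so CpG number did not follow the class code among the 7.

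Promoter sequence was found for 53 of the 62 members, in a window of 250 bases before the start. The genes without one were Efnb3, Ntn1, Plxna1, Plxna4, Sema3b, Sema3f, Sema6a, Slit1 and Unc5d. Bivalent members had a median of 20 CpG in the window (interquartile range 16 to 26, 29 genes) and active members 11 (7 to 16.2, 23 genes), beside 6 (2 to 16) over all 32851 promoters of the reference table, which include genes outside the deposited one. In the deposited table, 69.7% of genes had an entry, so members are set beside them as a description that may not hold for the genes without one. The 10674 genes with one had a median of 15 CpG, with 17 for bivalent and 16 for active genes, much nearer to the members than the 6 over all promoters, and active members (11) lay below their class. The GC box GGGCGG, searched on both strands and itself holding a CpG, occurred in 40 of the 53 (75.5%), against 32.7% of all promoters but 62.4% of the 10674 genes and 73.2% of the bivalent ones among them. Of the 7 called members 5 held it, and Sema3d and Ephb1 did not. TATAAA, searched in the same way, occurred in 2 of the 53, against 12.4% of all promoters and 8.48% of the 10674 genes. The values over all promoters count each promoter, whereas those of members and of the 10674 genes count genes, some with several starts. A match is a description of the letters, not a site of binding.

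WT levels of the module were low, with means from 0.0145 to 12.8 RPKM. By the deposited RPKM, which divides by gene length and so allows genes to be compared, the median of the WT means was 0.640 for ligands and 0.873 for receptors, against 3.43 over all genes of the table. The best expressed receptor was Epha2, a receptor of ephrin-A ligands, with 14.7 and 10.9 RPKM in the WT libraries and 16.7 in K3R3. It was followed by Plxnb2, a receptor of class 4 semaphorins (6.43, 5.24 and 5.23 RPKM), Plxna1 (5.45, 4.05 and 4.96 RPKM) and Nrp2, the neuropilin that binds Sema3f (3.93, 3.17 and 6.35 RPKM). Epha2 stood apart from the next receptor in each library, whereas the WT ranges of Plxnb2 and Plxna1 overlapped, as did those of Nrp2 and the next receptor, Epha4 (4.05 and 2.99 RPKM).

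Among ligands the leading genes were close to one another. Ntn1, a secreted netrin, had 4.45 and 5.03 RPKM in WT and 3.62 in K3R3. Sema4d, a ligand of plexin B receptors, had 4.47, 4.77 and 4.74 RPKM. Efnb2, a transmembrane ephrin known from arteries, had 5.05, 3.89 and 4.94 RPKM, and Sema4b had 5.32, 3.45 and 4.82 RPKM. The WT ranges of these 4 ligands overlapped, so their order was not resolved. At the other end, Sema3d and Sema6b had WT means of 0.0218 and 0.0245 RPKM, and Plxnb3, a plexin, 0.0145 RPKM.

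**Figure D2:**
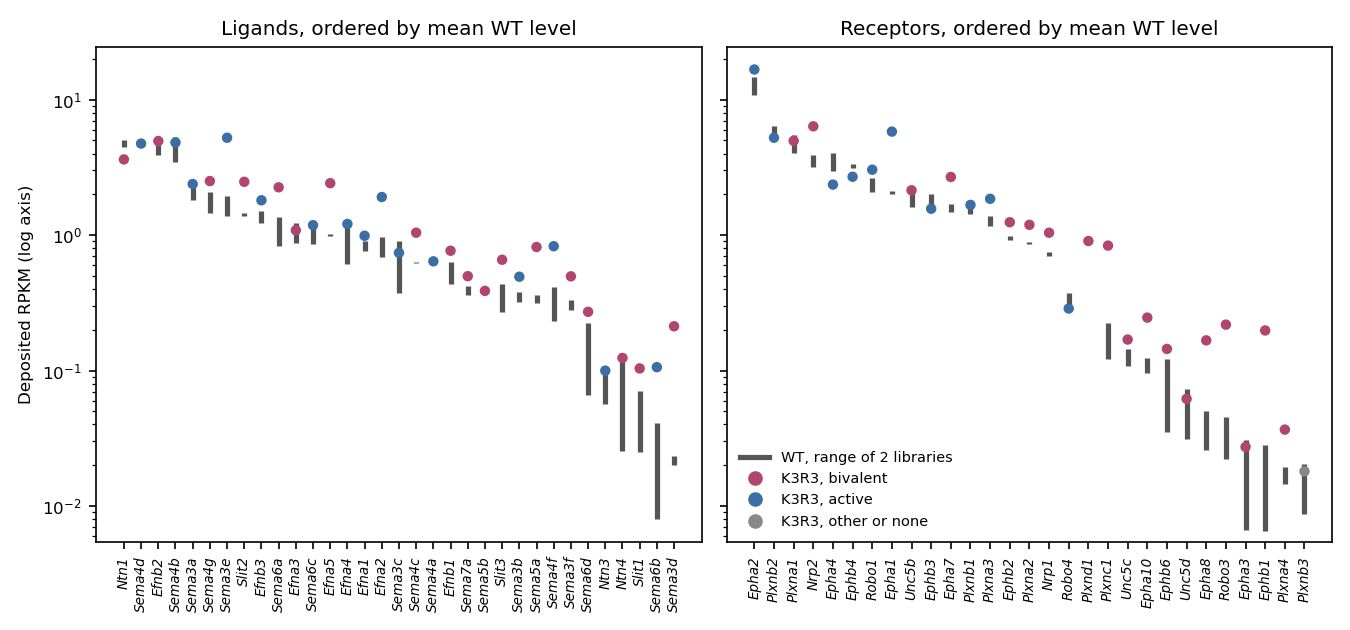
Deposited RPKM on a log axis for every ligand (left) and receptor (right), ordered by the mean of the WT libraries. Bars span the 2 WT libraries and points show the K3R3 library, coloured by class. Epha2 leads the receptors with 14.7 and 10.9 RPKM in WT and 16.7 RPKM in K3R3, and no ligand has a WT mean above 4.74 RPKM.

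The semaphorin and plexin families, with 18 and 7 of the 57 tested members, held 4 of the 7 called genes. Sema3e, a secreted class 3 semaphorin that binds plexin D1 directly, stood at 14.8 and 20.4 CPM in WT and at 50.8 CPM in K3R3. The K3R3 value lay above both WT libraries, which differed from each other by 0.46 on the log2 scale. The fitted log2 difference was 1.52 (SE 0.28; adjusted p = 3.86e-05 by edgeR), and it was 1.77 against replicate 1 alone and 1.31 against replicate 2 alone. Plxnd1, the plexin that receives Sema3e and patterns vessels and axons, stood at 2.33 and 2.30 CPM in WT and at 8.83 CPM in K3R3. Its WT libraries were close together, and K3R3 was 3.82 times their mean (log2 difference 1.93, SE 0.44; adjusted p = 0.00175 by edgeR).

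Plxnc1, the receptor of the membrane-anchored Sema7a, stood at 1.33 and 2.42 CPM in WT and at 8.34 CPM in K3R3. The WT libraries differed by 0.84 on the log2 scale and K3R3 lay above both (log2 difference 2.14, SE 0.46; adjusted p = 0.000581 by edgeR). Its ligand Sema7a was not called, with 2.14 and 1.81 CPM in WT and 2.30 CPM in K3R3 (log2 difference 0.22, SE 0.61). Sema3d, a secreted semaphorin of heart and vessel development, had 5 and 5 counts in WT and 51 in K3R3. This is a ratio of 8.98 with an exact conditional 95% interval of 4.51 to 19.8, which covers counting error only. DESeq2 did not keep the calls of Plxnd1 and Plxnc1 (adjusted p = 0.161 for each) or Sema3d (adjusted p = 0.639).

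**Figure D3:**
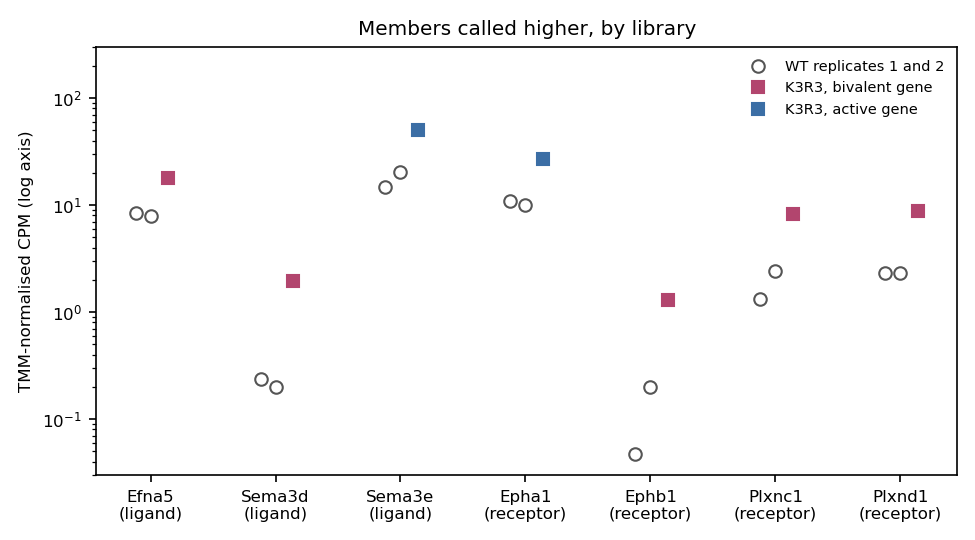
TMM-normalised CPM on a log axis of the 7 members called higher, with open circles for WT replicates 1 and 2 and a square for K3R3, coloured by class. In each gene the K3R3 value lies above both WT values, and Sema3d and Ephb1 reach at most 0.238 CPM in WT.

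The other 4 class 3 semaphorins were not called. Sema3a stood at 19.2 and 23.7 CPM in WT and at 23.1 CPM in K3R3, between the WT libraries. Sema3c, with 6.99 and 2.82 CPM in WT and 5.19 CPM in K3R3, had the widest WT pair of the class (log2 difference of replicate 2 minus replicate 1, -1.30). Sema3b and Sema3f had log2 differences of 0.37 and 0.57. In GRCm38.p6, Sema3a and Sema3d are neighbouring protein-coding genes. Sema3a, the active one, had a log2 difference of 0.10, and Sema3d, the bivalent one, 3.13. Sema3d passed the minimum only through K3R3, so nothing is read from the pair.

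Of 6 class 4 semaphorins 0 were called, with 1 at an unadjusted p under 0.05 by edgeR and 0 called by DESeq2. That gene was Sema4f, at 1.47 and 2.58 CPM in WT and 4.76 CPM in K3R3 (log2 difference 1.22, SE 0.51; adjusted p = 0.248 by edgeR). Sema4a, Sema4b and Sema4d lay within 0.09 of 0 on the log2 scale. Sema4c, which signals through plexin B2, and Sema4g had log2 differences of 0.61 and 0.37. Over all genes tested, 2.02% were called higher and 7.90% lay higher at an unadjusted p under 0.05 by edgeR. Counts of called genes within single families, here and below, are therefore too small to read.

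Of the 6 tested class 5 to 7 semaphorins 0 were called as well, with 2 at an unadjusted p under 0.05 and 0 by DESeq2. Sema5a, a transmembrane semaphorin with thrombospondin repeats, stood at 6.04 and 5.24 CPM in WT and at 12.5 CPM in K3R3. K3R3 lay above both WT libraries, but the adjusted p was 0.0702 by edgeR (log2 difference 1.15, SE 0.38). With the library totals implied by RPKM in place of TMM it passed (adjusted p = 0.0247 by edgeR), but those totals moved the median of all genes tested from -0.01 to 0.11. Sema6a, a transmembrane ligand of plexins A2 and A4, stood at 8.85 and 14.4 CPM in WT and at 22.0 CPM in K3R3 (log2 difference 0.92, SE 0.33; adjusted p = 0.115 by edgeR, or 0.0408 with the implied totals). Sema6d had 0.78, Sema7a 0.22, Sema6c 0.09 and Sema5b -0.13 on the log2 scale. Sema6b was not tested and had 1 and 6 counts in WT and 15 in K3R3.

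Plexins of the A and B types were not called. Plxna1, Plxna2 and Plxna3, which serve as signalling partners of neuropilins and class 6 semaphorins, had log2 differences of -0.06, 0.32 and 0.42. Plxnb1 and Plxnb2, the receptors of class 4 semaphorins, had 0.03 and -0.28. DESeq2 also called 0 of these 5, and 0 had an unadjusted p under 0.05 by edgeR. The co-receptor Nrp2 stood at 41.1 and 32.7 CPM in WT and at 60.6 CPM in K3R3. This exceeded both WT libraries, and the adjusted p was 0.120 by edgeR (log2 difference 0.71, SE 0.26), or 0.0370 with the implied totals. Nrp1, the co-receptor of Sema3a, had a log2 difference of 0.39 (SE 0.39). Plxna4 and Plxnb3 were not tested, with at most 17 counts in any library.

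Ephrins and Eph receptors, with 8 and 11 of the 57 tested members, held the other 3 called genes. Efna5, a GPI-anchored ephrin that sets topographic maps in the visual system, stood at 8.37 and 7.90 CPM in WT and at 18.0 CPM in K3R3. K3R3 was 2.21 times the WT mean, and WT replicate 2 differed from replicate 1 by -0.08 on the log2 scale (log2 difference of K3R3 1.14, SE 0.35; adjusted p = 0.0404 by edgeR). This call was near the threshold: the adjusted p was 0.0542 without the low-count filter, 0.0508 by the likelihood ratio test and 0.337 by DESeq2. Efna2 stood at 2.28 and 3.18 CPM in WT and at 5.76 CPM in K3R3 (log2 difference 1.07, SE 0.47; adjusted p = 0.292 by edgeR).

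Efna1, Efna3 and Efna4 are consecutive protein-coding genes in GRCm38.p6. Their log2 differences were 0.12, -0.08 and 0.27, and in each of the 3 the K3R3 value lay between the WT libraries. Efna1 and Efna4 are active and Efna3 is bivalent, so here the bivalent gene had the lowest value. In the neighbours Sema3d and Sema3a or Robo3 and Robo4 the bivalent gene lay higher. Sema3d and Robo3 passed the minimum only through the K3R3 library, so as tested genes they had to lie higher there. Nothing is therefore read from these pairs. The ephrin-B ligands Efnb1, Efnb2 and Efnb3 had 0.40, 0.02 and 0.28, with 0 called by edgeR or DESeq2 and 0 at an unadjusted p under 0.05. Among the 8 ephrins 1 was called.

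Of the 6 EphA receptors tested, Epha1 rose. It stood at 10.8 and 9.99 CPM in WT and at 26.9 CPM in K3R3, which is 2.59 times the WT mean. The WT libraries differed little, and the log2 difference was 1.37 (SE 0.32; adjusted p = 0.00244 by edgeR, 0.0437 by DESeq2). Epha4, a receptor that binds ephrins of both types, was at 39.9 and 29.0 CPM in WT and at 21.1 CPM in K3R3, below both WT libraries (log2 difference -0.70, SE 0.30; adjusted p = 0.266 by edgeR). Epha2, the most abundant receptor, had a log2 difference of 0.26 (SE 0.22). Epha7 had 0.63, Epha10 1.03 and Epha8 1.97, none of them called. Epha3 was not tested, with 4 and 1 counts in WT and 4 in K3R3.

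Of the 5 EphB receptors, Ephb1 rose, from 1 and 5 counts in WT to 34 in K3R3. The ratio was 9.98 with a counting interval of 4.14 to 29.1, and the adjusted p was 0.0470 by edgeR and 0.914 by DESeq2. Among the better expressed EphB receptors, Ephb4 and Ephb3 lay below both WT libraries. Ephb4, a receptor of venous endothelium, stood at 21.2 and 22.3 CPM in WT and at 16.6 CPM in K3R3 (log2 difference -0.39, SE 0.32), and Ephb3 at 13.0, 9.63 and 9.18 CPM (-0.30, SE 0.37). Ephb2 and Ephb6 had log2 differences of 0.26 and 0.77. Of these 4, 0 were called by edgeR or DESeq2 and 0 had an unadjusted p under 0.05.

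The 3 Slit ligands lay above both WT libraries in K3R3, and 0 were called by edgeR or DESeq2. Slit2 stood at 17.3 and 17.8 CPM in WT and at 28.0 CPM in K3R3 (log2 difference 0.67, SE 0.31; adjusted p = 0.332 by edgeR), the only Slit gene with an unadjusted p under 0.05. Slit3 had 2.09, 3.34 and 4.65 CPM in the same order, and Slit1 12 and 5 counts in WT against 20 in K3R3. Of their receptors, Robo1 stood at 31.2 and 24.3 CPM in WT and at 32.5 CPM in K3R3, just above the higher WT library (log2 difference 0.23, SE 0.29).

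Robo3, which governs midline crossing of commissural axons, had 7 and 4 counts in WT and 38 in K3R3, a ratio of 6.08 (counting interval 3.05 to 13.2). Its adjusted p was 0.114 by edgeR's main test and 0.0295 by its likelihood ratio test. Robo4, an endothelial Robo and the neighbour of Robo3 in GRCm38.p6, had 45 and 40 counts in WT and 39 in K3R3. In log2 terms the bivalent Robo3 had 2.56 (SE 0.91) and the active Robo4 -0.32 (SE 0.67). Robo3 passed the minimum only through K3R3, so nothing is read from this pair.

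Netrins and their receptors held no called gene by edgeR or DESeq2, and 0 of the 5 tested had an unadjusted p under 0.05. Ntn1 was at 39.7 and 44.2 CPM in WT and at 29.4 CPM in K3R3. This was below both WT libraries, and it had the lowest log2 difference of the tested ligands (-0.51, SE 0.28; adjusted p = 0.523 by edgeR). Ntn3 had a log2 difference of 0.25, and Ntn4, with 2 and 11 counts in WT and 11 in K3R3, was not tested. The repulsive receptors Unc5b, Unc5c and Unc5d had 0.07, 0.29 and 0.13. The name-alike Unc50 had 19.1, 20.5 and 18.8 RPKM and a log2 difference of -0.20, and Unc5cl was not tested.

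Ligands and receptors were set side by side as groups, with no test of the difference between them. Of 31 tested ligands 3 rose (9.68%), and of 26 tested receptors 4 rose (15.4%), with 0 lower in either by edgeR or DESeq2, beside 2.02% higher and 0.542% lower over all genes tested. Each count holds 1 gene, Sema3d or Ephb1, that passed the minimum only through K3R3. The median log2 difference was 0.37 for ligands (interquartile range 0.09 to 0.85) and 0.31 for receptors (0.04 to 0.97), against -0.01 over all genes tested. The same medians between the WT replicates (replicate 2 minus replicate 1) were 0.01 and -0.25. The receptor group thus varied between the WT libraries by nearly as much as its difference in K3R3, and its median was 0.32 against replicate 1 alone and 0.38 against replicate 2 alone. Over every gene in the table, K3R3 lay above both WT libraries in 19 of 33 ligands and 18 of 29 receptors, and below both in 4 and 5, against 35.3% above and 33.2% below for all genes. At a mean of 0.5 to 2 CPM the median log2 difference was 0.67 for members and 0.50 for all genes. It was 0.39 and 0.20 at 2 to 10 CPM, and 0.17 and -0.04 at 10 to 100 CPM. In these ranges K3R3 lay above both WT libraries in 68.75%, 70.6% and 50% of members, against 59.5%, 52.65% and 25.9% of all genes. In the first range 6 of 16 members and 353 of 2157 genes passed the minimum only through K3R3. At 100 CPM or more there were 0 members, and 2544 genes had a median of -0.13.

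Medians split by class code lay further apart than those split by role, a difference that was not tested. Of 36 bivalent members, 27 lay above both WT libraries in K3R3 and 2 below, against 72.6% and 10.3% of all bivalent genes. Of 25 active members 10 lay above and 7 below, against 28.9% and 37.1% of all active genes. Among bivalent receptors 14 of 18 lay above and 0 below, and among active receptors 4 of 10 above and 5 below. The 5 active receptors below were Epha4, Ephb3, Ephb4, Plxnb2 and Robo4. Called higher were 5 of 33 tested bivalent members, where 10.5% of all bivalent genes were called, and 2 of 24 tested active members (Sema3e and Epha1), where 0.838% of all active genes were called. The share of bivalent members called was thus near that of their class. Of the 33 bivalent members 6, with 2 of the 5 called, passed the minimum only through K3R3. So did 164 of the 1671 bivalent genes tested, with 40 of the 175 called, but 0 of the 24 active members. Such genes can raise the bivalent counts and medians, so part of the distance between the classes may come from the minimum.

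In medians too the bivalent members lay near their class. Bivalent members had a median log2 difference of 0.63, beside 0.65 over all bivalent genes tested, with 0.61 for bivalent ligands and 0.67 for bivalent receptors. Active members had 0.11, beside -0.04 over all active genes. Active ligands had 0.18 and active receptors -0.13, which became -0.0047 with the implied totals. Those totals moved the median of all genes up by 0.12. The median of active receptors was -0.21 against WT replicate 1 alone and 0.03 against replicate 2 alone, so its sign turned without replicate 1.

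**Figure D4:**
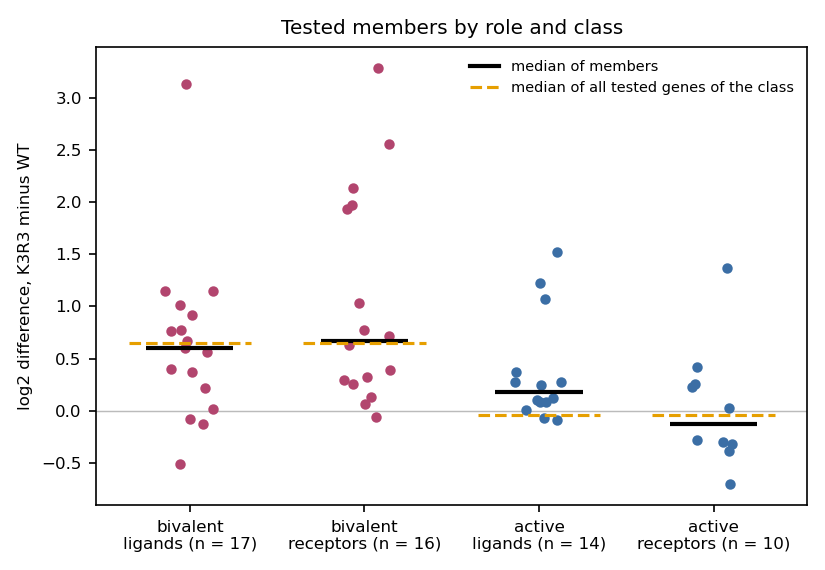
Fitted log2 difference of K3R3 minus WT for the tested members by class and role, 1 point a gene. Black bars are medians of the members (0.61, 0.67, 0.18 and -0.13 from left to right) and dashed lines are medians of all tested genes of the class (0.65 for bivalent, -0.04 for active).

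Bivalent members, and then active members, were also set beside genes of their class of like mean expression, as a description. At a mean of 0.5 to 2 CPM the median was 0.89 for 12 bivalent members and 1.05 for all bivalent genes. At 2 to 10 CPM it was 0.50 for 10 members and 0.67 for the class, and at 10 to 100 CPM 0.37 for 11 members and 0.22 for the class. In the first range 6 of the 12 members and 163 of the 614 bivalent genes passed the minimum only through K3R3, which can raise both medians, so nothing is read from it. For active members and all active genes the medians were 0.18 and 0.40 at 0.5 to 2 CPM (4 members). They were 0.27 and 0.15 at 2 to 10 CPM (7 members), and 0.02 and -0.05 at 10 to 100 CPM (13 members). In the first range 135 of 1040 active genes and 0 active members passed the minimum only through K3R3. The value over all active genes (-0.04) also covers 2459 genes at 100 CPM or more (median -0.13), where there were 0 members.

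Other guidance genes were described from a list of 70 co-receptors, further cues and intracellular mediators, of which 65 were tested. Of these, 2 (3.08%) rose and 0 fell by edgeR, close to the 2.02% and 0.542% of all genes tested. At an unadjusted p under 0.05, 10 lay higher and 1 lower, where 7.90% and 3.33% of all genes did, and DESeq2 called 0. Vav3, a signalling protein that acts downstream of Eph receptors, stood at 1.76 and 2.14 CPM in WT and at 7.11 CPM in K3R3 (log2 difference 1.86, SE 0.47; adjusted p = 0.00679 by edgeR). L1cam, an adhesion molecule that joins neuropilin in semaphorin receptors, stood at 3.52 and 1.45 CPM in WT and at 7.11 CPM in K3R3 (1.52, SE 0.46; adjusted p = 0.0393 by edgeR). The list median was 0.05, with 0.48 for its 19 bivalent and -0.11 for its 44 active genes.

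The libraries held 21614693 and 25426228 counts for WT and 24718223 for K3R3. H2afz, the gene targeted by the hairpin, had 4605 and 5750 counts in WT and 5770 in K3R3, which does not check the labels, since the transgene adds reads and both groups carry the hairpin. ES cell markers were abundant in all 3, with summed levels of 4661 and 3837 CPM over 8 genes in WT and 3015 CPM in K3R3 and 3 of the 8 (Dppa5a, Klf4 and Sox2) called lower. Markers of cells that use guidance genes were also examined. Of 18 neural markers 16 were in the table (not Map2 and Dcx), with sums of 474 and 391 CPM in WT and 385 CPM in K3R3, and 1 (Nefm) rose. Stmn2 held most of that sum, and the other neural markers came to 133 and 155 CPM in WT and 183 CPM in K3R3, with 10 of the 16 above both WT libraries and a median log2 difference of 0.36 over the 14 tested. Of 16 fibroblast markers, listed because the cells were kept on feeders until the last passage, 14 were in the table (not Lum and Postn), with 397 and 358 CPM in WT and 357 CPM in K3R3, and Thy1 rose. Without Vim, the most abundant, the sums were 151 and 170 CPM in WT and 193 CPM in K3R3, with 9 of the 14 above both WT libraries and a median log2 difference of 0.47. The medians of both lists were thus as large as that of the ligands and receptors (0.32) or larger. Of 8 endothelial markers 7 were in the table (not Emcn), with 16.7 and 14.6 CPM in WT and 22.0 CPM in K3R3, with 4 of the 7 above both WT libraries and a median log2 difference of 0.45, and Flt1 rose from 2.14 and 1.65 to 7.34 CPM. Of 12 primitive endoderm markers 10 were in the table (not Afp and Ttr), with 227 and 233 CPM in WT and 117 CPM in K3R3, and Cubn and Gata6 fell. The part of these cell types in the member values was not tested, and in bulk RNA a different number of cells of a type and a different level per cell cannot be told apart.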

How the data were processed

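Polyadenylated RNA of 2 WT libraries and 1 K3R3 library was compared. The authors deposited whole-number counts for each gene, and the submitters' processing notes name HTSeq 0.5.4p1 and build mm9. Aligner, annotation and strand setting are not given in the sources used here, and reads from overlapping genes could be shared. The smallest count in any library is 1. RPKM values were deposited by the authors as counts per gene length and per a library total larger than the column sum. The deposited fold ratio, log2 value and unadjusted p-value are from the authors' comparison, for which the processing notes name DESeq 1.10.1. The deposited log2 has the sign opposite to K3R3 minus WT in 100% of 1300 genes over 2-fold apart, so directions were taken from the counts, and depend on the names of the count columns.

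Counts were fitted with edgeR 4.0.16 (R 4.3.3) over all 13829 genes reaching a mean of 0.5 CPM, with TMM scaling, a two-sided quasi-likelihood test and a Benjamini-Hochberg threshold of 0.05. With 1 residual degree of freedom the spread is that of the WT pair, and K3R3 as a single library is taken to vary like WT. The prior degrees of freedom were infinite, so the spread was shared across genes and not each gene's own. Each SE was derived from the test, as the absolute log2 difference divided by the square root of its F statistic. Sema3c and Sema4c, whose WT pairs differed by -1.30 and 0.02 on the log2 scale, had SE of 0.44 and 0.45. The script was tested on simulated data. Differences against 1 replicate alone use log2 CPM (prior count 1) and have no test. DESeq2 1.42.0 and other scalings and filters were alternatives. Counting intervals are exact conditional 95% intervals. Members, lists and tests were chosen with earlier results of these data known. Named were all members called or past the size rule, the 4 best expressed of each role, the extremes of each family, and called genes of the wider list. Further members were named after their values were seen. Sequences are RefSeq promoters on GRCm38.p6, from which no coordinate was set against the deposited data.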

Additional observations from a re-analysis of the deposited data

How the results depend on the processing

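The direction of the 7 called members was the same under every alternative run (54 of 54 values above 0). This does not test the direction, since K3R3 lay well above both WT libraries in each and every run reused the same libraries. Under the alternatives 0 members were called lower. DESeq2 called 2 members (1 ligand and 1 receptor) where edgeR called 7. With library totals implied by RPKM 5 ligands were called in place of 3, and the medians were 0.50 for ligands and 0.43 for receptors. Those totals also moved the median of all genes tested from -0.01 to 0.11. The share of all genes called with them was not counted, so the added calls are not read as a result about the members. With a minimum mean of 2 CPM the medians were 0.28 and 0.26. This leaves out 16 of the tested members, 12 of them bivalent, with Sema3d and Ephb1 among them. Without 1 WT replicate in turn, the median of ligands ranged from 0.32 to 0.45 and that of receptors from 0.32 to 0.38, and the count of members 2-fold higher by size from 6 to 9. The signs of Efna3 (0.048), Plxna1 (0.064) and Sema4d (0.036), none called, turned with the implied totals. Leaving out a replicate leaves 1 library against 1 with no residual degrees of freedom, so no counts of calls were made there. No paired analysis was possible because the K3R3 group has 1 library and no replicate number. The cause of these changes was not tested. Depth limits members under 20 counts, whose counting intervals span several fold.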
